A study of Homo sapiens with 12 samples.

Results

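The replacement histone variants are histones whose genes are read outside of DNA synthesis and which take the place of canonical histones in particular stretches of chromatin. 10 of their genes were chosen by symbol, of which 9 are reported here: H2AFZ, H2AFV, H2AFX, H2AFY and H2AFY2 of the H2A family, H3F3A, H3F3B and CENPA of the H3 family, and H1FX of the linker histones. All 9 were among the 35337 rows of the deposited expression table, had reads, and were among the 13847 genes tested. The cells were EndoC-βH3, a human pancreatic beta-like line of fetal pancreas origin, labelled genotype WT, kept dividing by transgenes for hTERT and the SV40 large T antigen. A CreER recombinase in the same cells cuts these out when 4-hydroxy-tamoxifen (4-OHT) activates it. Poly(A) RNA was read from its 3′ end in 6 samples of senescent cells, given 4-OHT for 3 weeks, and in 6 control samples of non-senescent cells, which carried the same introduced genes. By a letter in their titles, taken as the batch, 2 samples per group belonged to A and 4 per group to B. All samples came from 1 cell line, and senescence was driven in them by loss of the immortalising genes.

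Canonical histone genes are copied in large numbers in S phase, and most of their mRNAs end in a stem-loop without a poly(A) tail. Replacement variants have introns or poly(A) tails or both, and their proteins are put into chromatin by dedicated chaperones and remodelling complexes, also in cells that no longer divide. H2A.Z marks promoters and enhancers, H3.3 marks active genes and also heterochromatin, H2A.X carries the phosphorylation that flags broken DNA, macroH2A is known from the silent X chromosome and from senescent fibroblasts, and CENP-A defines the centromere.

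Of the 9 genes, 5 fell upon senescence: CENPA, H2AFZ, H1FX, H2AFX and H2AFV. None rose by limma, nor by edgeR or DESeq2 on the recovered reads, which each called 5 lower (12.1% and 11.9% of all genes), and 0 were higher at an unadjusted p under 0.05. The falls ran from a log2 fold change of -2.66 ± 0.32 (SE, n = 6 per group) for CENPA to -0.63 ± 0.09 for H2AFV. A gene was called when the Benjamini-Hochberg adjusted p of limma, over all tested genes and with batch in the model, was under 0.1 and the fold change over 1.5, on the scale of log2(normalised read count + 1). Of all tested genes, 11.8% were called lower and 11.6% higher by that rule, which makes 23.4% together. The other 4 genes, H2AFY, H2AFY2, H3F3A and H3F3B, were not called. Without the fold limit 8 of the 9 were lower at an adjusted p under 0.1, all but H2AFY2, beside 22.3% of all tested genes. The fitted change of all 9 was below 0, against 48.9% of all tested genes, and the median was -0.63 against 0.012. These signs did not turn under TMM scaling or with every library scaled to the same total, but in batch A alone H2AFY2 was higher. With the same total the median of all genes moved to -0.09 and the 9 changes ran from -2.76 to -0.30. That scaling turned 1605 higher and 1632 lower genes into 1226 and 2090. The samples are bulk cultures, so fewer cells that express a gene and less of its RNA per cell cannot be told apart.

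Before the values, the stretches of 210 bases upstream of the RefSeq transcript start are shown for 5 of the genes: CENPA, H2AFZ, H2AFX, H2AFV and H3F3B, the genes with the most matches in a single promoter to 3 motifs known from promoters of genes used in cell division. The motifs are the CHR element, searched as TTTGAA, E2F site cores, searched as TTTGGCG or as TTTCGCG or as TTTCCCG or as GGCGGGA, and the CCAAT box, the site of NF-Y, searched as CCAAT, each on both strands. Capitals mark every match, a match on the opposite strand appears as its reverse complement, and each line runs 5′ to 3′ on the strand of the gene and ends at the base before the start. The stretches were read from RefSeq on GRCh38.p14: CENPA at chr2:26785846-26786055 on the plus strand, H2AFZ at chr4:99950276-99950485 on the minus strand, H2AFX at chr11:119095466-119095675 on the minus strand, H2AFV at chr7:44848088-44848297 on the minus strand, and H3F3B at chr17:75779780-75779989 on the minus strand. Alternative transcripts of the same gene in GENCODE v44 start further upstream, and their exons cover 29 bases of the stretch of CENPA, 80 of H2AFZ (5 by a coding transcript), 1 of H3F3B and 0 of H2AFX and H2AFV.
CENPA: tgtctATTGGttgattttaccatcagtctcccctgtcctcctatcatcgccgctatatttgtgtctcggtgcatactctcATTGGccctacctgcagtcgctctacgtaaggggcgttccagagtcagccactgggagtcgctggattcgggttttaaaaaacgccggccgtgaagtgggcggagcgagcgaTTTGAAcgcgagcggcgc
H2AFZ: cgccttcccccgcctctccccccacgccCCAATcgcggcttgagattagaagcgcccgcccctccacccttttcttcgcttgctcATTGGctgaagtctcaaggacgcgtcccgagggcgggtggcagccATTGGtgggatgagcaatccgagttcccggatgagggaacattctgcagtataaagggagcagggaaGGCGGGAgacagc
H2AFX: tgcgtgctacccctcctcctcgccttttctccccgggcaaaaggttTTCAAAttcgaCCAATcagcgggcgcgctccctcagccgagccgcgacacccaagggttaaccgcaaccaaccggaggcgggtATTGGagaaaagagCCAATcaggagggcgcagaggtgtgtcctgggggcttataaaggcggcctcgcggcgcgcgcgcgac
H2AFV: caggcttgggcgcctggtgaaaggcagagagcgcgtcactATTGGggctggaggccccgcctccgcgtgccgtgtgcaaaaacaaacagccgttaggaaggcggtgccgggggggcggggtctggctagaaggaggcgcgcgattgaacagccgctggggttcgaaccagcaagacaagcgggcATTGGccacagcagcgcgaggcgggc
H3F3B: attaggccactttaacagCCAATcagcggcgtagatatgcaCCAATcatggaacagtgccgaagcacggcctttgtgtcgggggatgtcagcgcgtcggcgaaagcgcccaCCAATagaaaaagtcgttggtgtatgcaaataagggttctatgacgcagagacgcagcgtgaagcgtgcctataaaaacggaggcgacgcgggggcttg

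RefSeq promoters of 300 bases, 250 before and 50 after the start, were at hand for all 9 genes, 13 promoters in all. A CHR element stood in 3 of the 13, against 15.2% of 35116 human promoters: in CENPA at bases -18 to -13, in H2AFX at -164 to -159 on the opposite strand, and in H2AFZ at 5 to 10, just after the start and outside of the stretch shown. An E2F core stood in 5 of the 13, against 20.4% of all: in H2AFZ, H1FX, CENPA and 2 of the starts of H3F3A, which was not called. Only CENPA held a core other than GGCGGGA, which by itself stood in 15.4% of all promoters. In CENPA 2 of the cores overlap each other at -232 to -226 and -230 to -224, upstream of the stretch shown. The CCAAT box stood in 9 of the 13, against 34.6% of all, and at least 3 times in 4 of them, H2AFZ, H2AFX, H2AFV and H3F3B, against 3.26% of all promoters. The 13 promoters include several starts of the same gene and were not drawn independently, so no test was made. The promoter of H2AFY2 held no match, which says only that these letters are not in its window, and a match of letters is not a site at which a factor was measured.

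**Figure D1:**
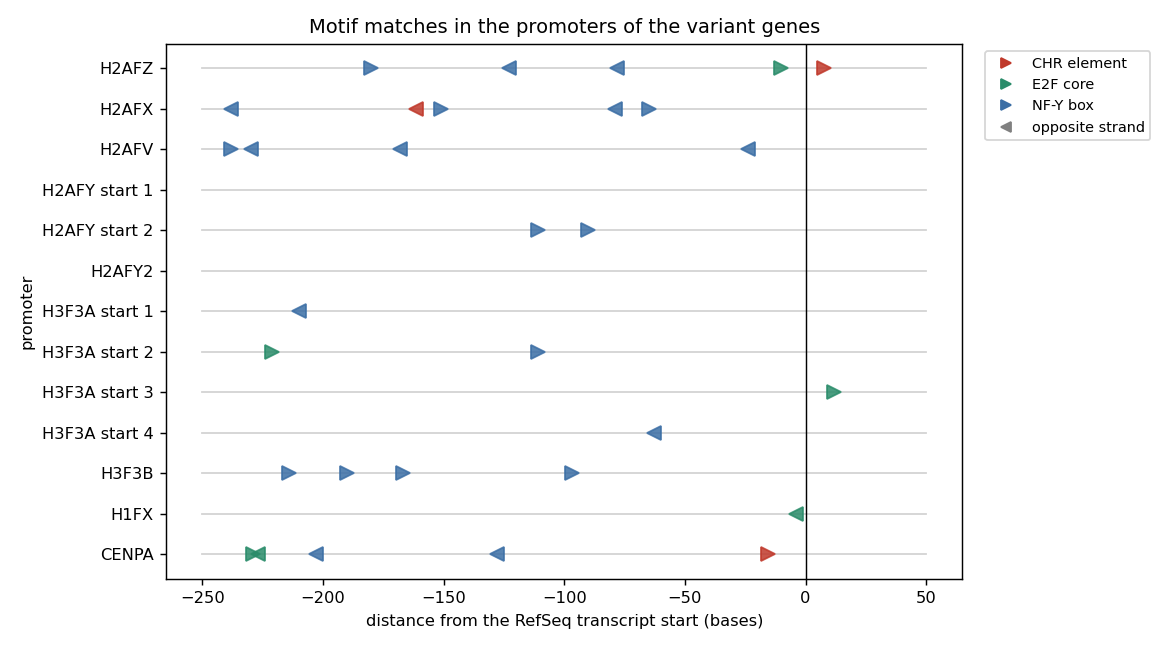
Matches to the CHR element, E2F cores and the CCAAT box (drawn as NF-Y box) in the 13 RefSeq promoters of the 9 variant genes, by distance in bases from the transcript start (vertical line), with triangles to the left for the opposite strand. CHR elements stand in H2AFZ, H2AFX and CENPA, and 4 promoters hold 3 or 4 CCAAT boxes.

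Depth was 8873569 to 17106776 reads per library in A and 4672924 to 7063264 in B, so a count of 0 allows up to 3 reads, or 0.175 to 0.642 ppm of the reads, which covers counting error only. Values are normalised read counts, whole reads divided by a size factor per library. The labels do not say that samples of a batch came from separate cultures, so p-values measure the spread between these samples, which may be technical. MKI67, a proliferation marker, fell (-2.83 ± 0.14), from 411 to 735 normalised reads in the non-senescent libraries to 63.7 to 88.4 in the senescent ones. CDKN1A, which encodes p21, rose by 2.18 on the log2 scale in batch A and by 4.78 in batch B. TERT was at 97.3 ± 36 normalised reads before and 112.5 ± 23.6 after senescence (SD, n = 6 each). Whether its row counts the introduced gene is not stated, so it does not check the excision, and large T antigen was not analysed here. The beta-cell markers INS (log2 fold change 2.23) and IAPP (1.87) rose. Of 12 such markers 5 rose and 1 fell, beside 11.6% and 11.8% of all tested genes. Of markers of other pancreatic endocrine cells, TTR rose and SST, GCG and HHEX fell. KRT19 and CPB1 of the exocrine list fell and CPA1 rose, with the other 7 of its 10 genes under the filter. Fibroblast genes summed to 15.3 to 126 normalised reads per library and immune and endothelial genes to 18.0 to 62.1, and of these PTPRC fell. The part of these cell markers in the results below was not tested.

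**Figure D2:**
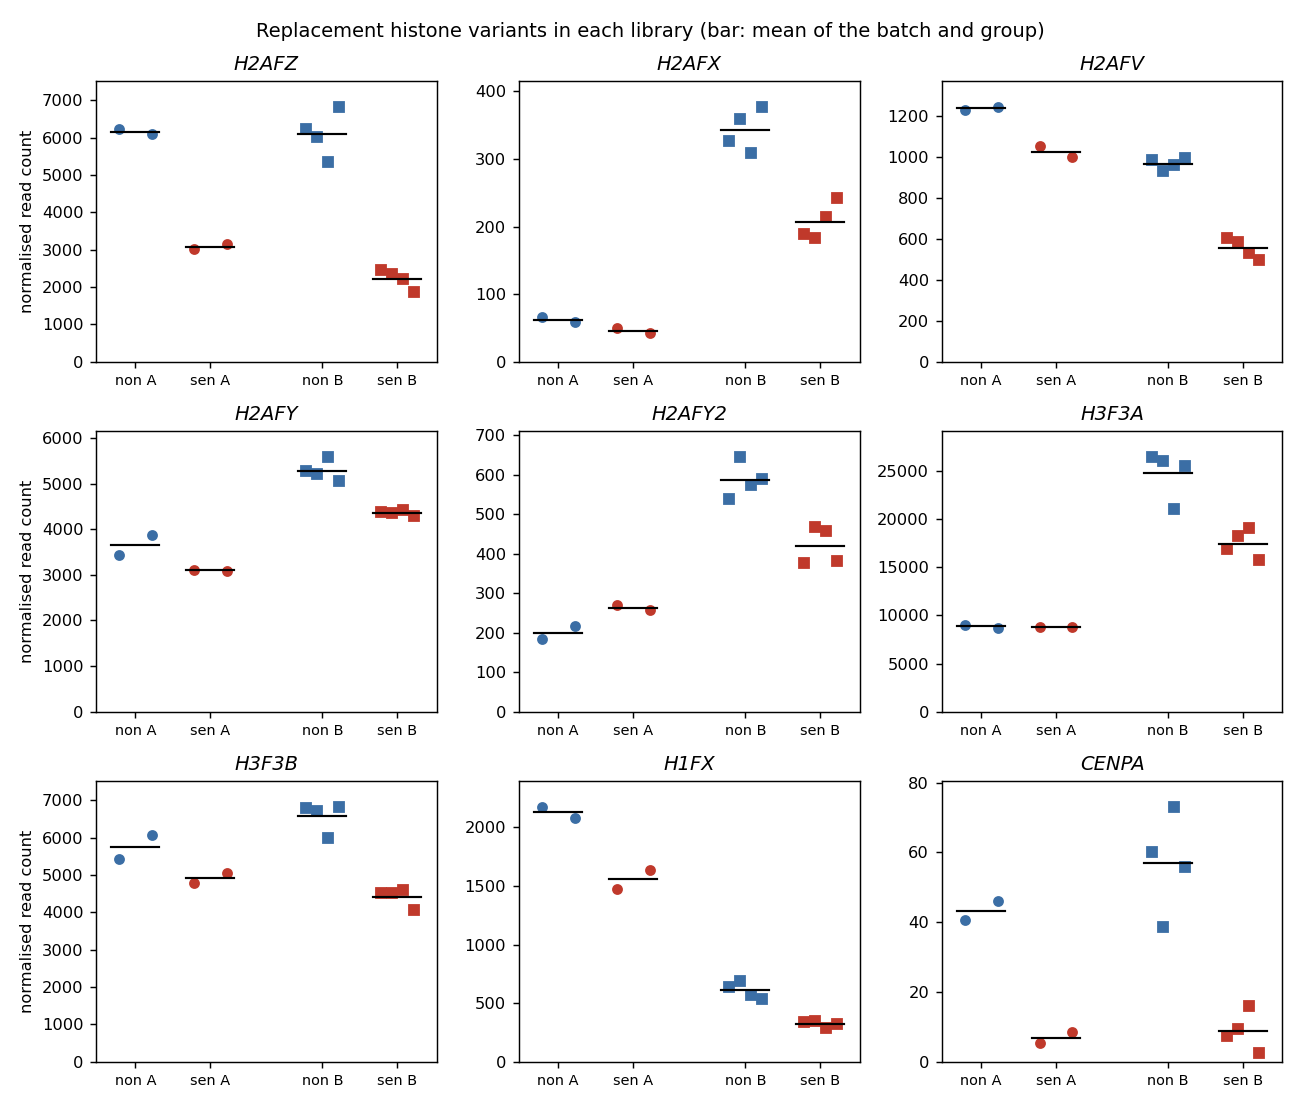
Normalised read count of each variant gene in each of the 12 libraries, non-senescent (blue) and senescent (red), batch A (circles, 2 per group) and batch B (squares, 4 per group), with a bar at the mean of each. The senescent libraries lie below the non-senescent ones in both batches for 7 genes, and H2AFX, H2AFY2, H3F3A and H1FX stand at different levels in A and B.

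H2AFZ encodes H2A.Z.1, a form of H2A.Z, at chr4:99948086-99950355 on the minus strand (GENCODE v44, GRCh38). In batch A it had 6226 and 6100.3 normalised reads in non-senescent and 3018 and 3141 in senescent cells. In batch B it had 6222, 6021, 5357 and 6837 in non-senescent and 2455, 2357, 2224 and 1869.6 in senescent cells. Every senescent library thus held less than every non-senescent one, and the non-senescent libraries of A lay within the range of those of B. H2AFZ fell to 0.50 of its level in batch A and to 0.36 in batch B (log2 fold change -1.31 ± 0.09, limma adjusted p = 5.125e-09).

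H2AFV, at chr7:44826791-44848087 on the minus strand, encodes H2A.Z.2, a near twin of H2A.Z.1. Its counts were 1232 and 1247 in non-senescent and 1052 and 1000.1 in senescent cells of batch A. In batch B they were 985, 931, 960.03 and 998 in non-senescent and 603, 585, 529.9 and 498 in senescent cells. The groups did not overlap within either batch, and the senescent libraries of batch A lay above the non-senescent ones of batch B. H2AFV fell with a log2 fold change of -0.63 ± 0.09 (limma adjusted p = 2.99e-05), of which batch A gave -0.27 and batch B -0.81, and batch A alone would not pass the fold limit. Without senescent replicate B4 the change was -0.58, just under the fold limit.

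The H2A.Z genes could be set against each other within a library, where the scaling between libraries cancels. Reads of H2AFZ per read of H2AFV went from 4.97 ± 0.11 (SD, n = 2) to 3.00 ± 0.19 in batch A and from 6.30 ± 0.53 (n = 4) to 4.01 ± 0.19 in batch B, non-senescent to senescent. The lowest non-senescent ratio was above the highest senescent one in both batches. The log2 ratio differed by -0.68, against a spread within groups of 0.09 (exact two-sided permutation test within batch over 420 arrangements, p = 0.00476, the smallest it can give, adjusted p = 0.00952 over the 4 ratios tested, of which 3 are reported). H2AFZ therefore fell more than H2AFV, and the ratio itself, which depends on how 3′ ends were counted, says nothing of the amounts of the proteins.

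H2AFX, at chr11:119093874-119095465 on the minus strand, encodes H2A.X, whose mRNA is known in forms with and without a poly(A) tail. The libraries count the former. In batch A its counts were 66.1 and 58.0 in non-senescent and 49.4 and 41.7 in senescent cells, from 69 to 119 reads per library. In batch B they were 327, 359, 308 and 378 in non-senescent and 189, 183, 214 and 243 in senescent cells. The groups did not overlap in either batch, while the batches lay 4.93-fold apart, far more than the groups. H2AFX fell with a log2 fold change of -0.63 ± 0.11 (limma adjusted p = 2.64e-04), -0.44 in A and -0.73 in B. The call was lost in batch A alone (adjusted p = 0.111) and without batch in the model (adjusted p = 0.605).

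The macroH2A genes had the smallest fitted changes of the 9. H2AFY, which encodes macroH2A1 at chr5:135334381-135399914 on the minus strand, had 3434 and 3877 normalised reads in non-senescent and 3111 and 3078 in senescent cells of batch A. In batch B it had 5269, 5211, 5589 and 5067 in non-senescent and 4376, 4349, 4409.98 and 4293 in senescent cells. Senescent libraries were below non-senescent ones in both batches, but by a small margin: the log2 fold change was -0.26 ± 0.05 (limma adjusted p = 8.86e-04), -0.24 in A and -0.28 in B, under the fold limit. macroH2A1 is known to build up in the heterochromatin foci of senescent fibroblasts, and its mRNA was not higher here in either batch. The former is a protein in other cells, and mRNA counts do not measure the protein or its place in chromatin.

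H2AFY2, which encodes macroH2A2 at chr10:70052544-70112282 on the plus strand, went opposite ways in the batches. In batch A it had 184 and 217 in non-senescent and 269 and 258 in senescent cells, and the senescent libraries were the higher. In batch B it had 538, 646, 574 and 589 in non-senescent and 377, 467, 458 and 381 in senescent cells, and the senescent libraries were the lower. Such opposite separation was seen in 1.85% of all tested genes and in H2AFY2 alone of the 9. The log2 difference was 0.40 in A and -0.48 in B, the pooled value -0.19 ± 0.13 was not called (adjusted p = 0.281), and the batch by group interaction was -0.88 (limma adjusted p = 0.0154). AIFM2, a gene for an oxidoreductase, overlaps it on the opposite strand, and whether the counts separate the strands is not stated. The log2 ratio of H2AFY to H2AFY2 differed by -0.64 in batch A and by 0.21 in batch B (exact permutation p = 0.567 over both).

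H3.3 is made from a pair of genes that encode the same protein. H3F3A, at chr1:226061851-226072019 on the plus strand, had 9041 and 8718 normalised reads in non-senescent and 8772 and 8804 in senescent cells of batch A, where the groups overlapped. In batch B it had 26471, 26044, 21084 and 25506 in non-senescent and 16835, 18197, 19020.3 and 15705 in senescent cells, with no overlap. The log2 difference was -0.01 in A and -0.50 in B, -0.34 ± 0.09 over both (limma adjusted p = 0.00536), under the fold limit. The processed pseudogene H3F3AP2 had 1008 reads over the 12 libraries, 0.522% of the reads of H3F3A, with a log2 difference of -0.04 (adjusted p = 0.886). Reads of such copies may be divided between them by the counting.

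H3F3B, at chr17:75776434-75785893 on the minus strand, had 5434 and 6086 in non-senescent and 4783 and 5048 in senescent cells of batch A. In batch B it had 6805, 6719, 5985 and 6828 in non-senescent and 4520.1, 4520.2, 4605 and 4056 in senescent cells. The senescent libraries were the lower in both batches, with a log2 difference of -0.46 ± 0.07 (limma adjusted p = 7.24e-05), -0.23 in A and -0.57 in B, under the fold limit. The gene UNK lies opposite to it. The log2 ratio of H3F3B to H3F3A differed by -0.12 between the groups (exact permutation p = 0.0476, adjusted p = 0.0635), which did not pass 0.05 after adjustment. The ratio was 0.65 and 0.56 in non-senescent and senescent cells of batch A and 0.27 and 0.25 in those of batch B, so it differed more between batches than between groups.

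CENPA, which encodes the H3 variant of centromeric nucleosomes at chr2:26764289-26801067 on the plus strand, fell the most. In batch A it had 40.6 and 46.1 normalised reads in non-senescent and 5.39 and 8.46 in senescent cells. In batch B it had 60.2, 38.5, 73.1 and 55.9 in non-senescent and 7.27, 9.45, 16.0 and 2.49 in senescent cells. The lowest non-senescent library held well over the highest senescent one.

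The log2 fold change of CENPA was -2.66 ± 0.32 (limma adjusted p = 4.49e-06). On that scale, with 1 added to each count, it fell to 0.18 in batch A and to 0.15 in batch B. Its mean counts went from 43.3 to 6.92 in A and from 56.9 to 8.81 in B. It had the fewest reads of the 9 genes, 28 to 73 in a non-senescent and 2 to 14 in a senescent library, so its senescent values carry the largest relative counting error, and the 2 reads of senescent replicate B4 are under the limit that a count of 0 allows. The pseudocount bore on it, with -2.83 at 0.1 and -1.92 at 8. The annotation places the gene SLC35F6 over part of it on the same strand.

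Linker histones seal the DNA between nucleosomes. H1FX, which encodes the linker histone H1X at chr3:129314771-129316286 on the minus strand, had 2176 and 2084 in non-senescent and 1475 and 1638 in senescent cells of batch A. In batch B it had 639.97, 687, 574 and 539 in non-senescent and 338, 352, 287 and 321 in senescent cells. The groups did not overlap in either batch, although batch A lay far above batch B, which stood at 0.24 of it. H1FX fell with a log2 fold change of -0.76 ± 0.09 (limma adjusted p = 6.06e-06), -0.45 in A, where it was under the fold limit, and -0.91 in B. Without batch in the model the adjusted p was 0.446.

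**Figure D3:**
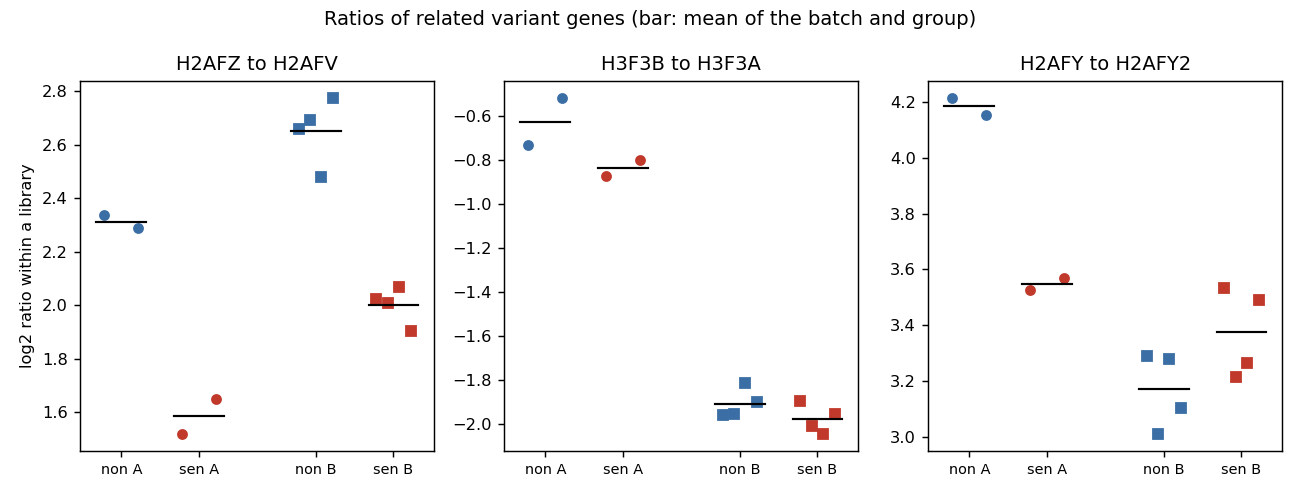
Log2 ratio of reads of related variant genes within each library, by group and batch (circles A, squares B, bars at the means). The ratio of H2AFZ to H2AFV is lower in all senescent libraries of a batch, H3F3B to H3F3A differs mostly by batch, and H2AFY to H2AFY2 goes opposite ways.

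Across the batches, 7 of the 9 genes were lower in every senescent than in every non-senescent library of both A and B, all but H3F3A and H2AFY2, beside 11.9% of all tested genes. In batch A alone 2 of the 9 were called, H2AFZ and CENPA, beside 11.4% of all genes called lower there, and in batch B alone 5, beside 12.1%. The difference was more negative in batch B for all 9 genes, against 50.2% of all tested genes, by a median of -0.45 on the log2 scale against -0.00254. The interaction itself passed an adjusted p of 0.1 for 3 of the 9, H2AFY2, H2AFV (-0.54) and H3F3A (-0.49), beside 4.21% of all genes. With 2 libraries of each group in batch A these calls were unsteady: leaving out 1 library at a time gave 0 to 5 genes, 0 without non-senescent A1 or senescent A1, 1 without non-senescent A2 or senescent A2, and 5 without non-senescent B3. CDKN1A rose more in B than in A, MKI67 fell less in B (-2.51) than in A (-3.45), and the part of these differences was not tested.

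**Figure D4:**
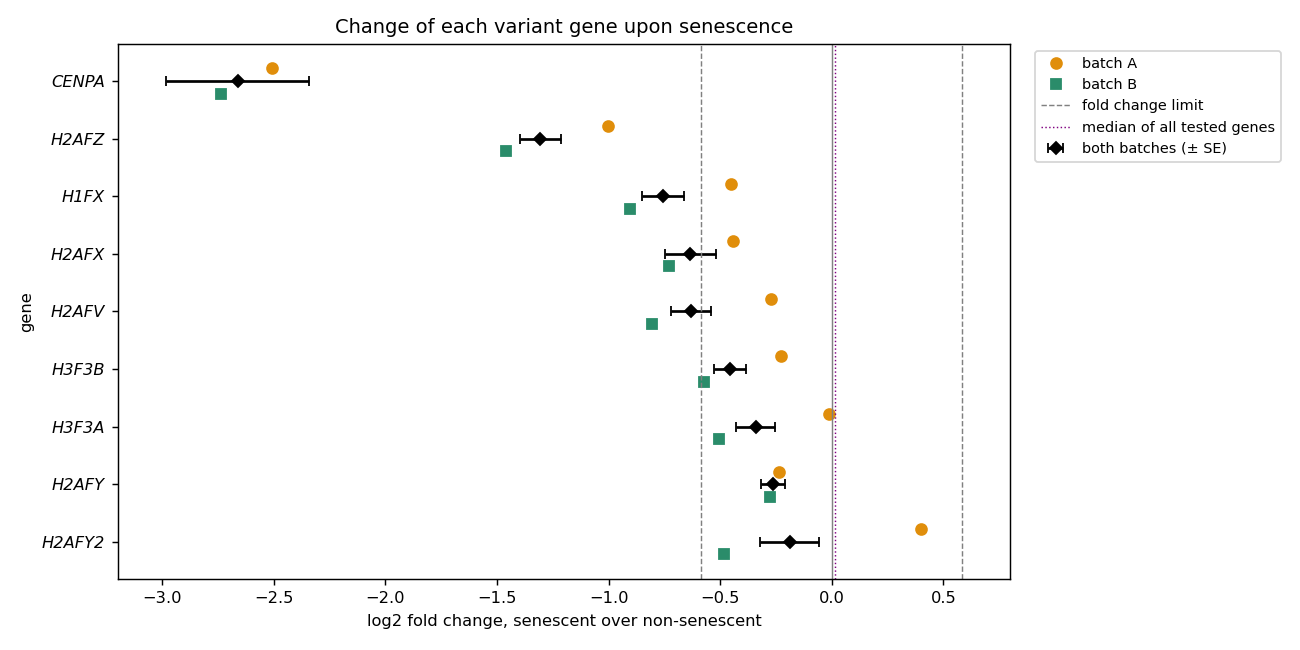
Log2 fold change of each variant gene (senescent over non-senescent, normalised read count + 1) over both batches (diamonds, bars ± SE) and within batch A (circles) and batch B (squares), with dashed lines at the 1.5-fold limits and a dotted line at the median of all genes. 5 diamonds lie beyond the lower limit, and every square lies to the left of its circle.

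The levels of the batches themselves also differed. Of the 9 genes, 4 differed more than 2-fold between the batches at equal group, as did 32% of all tested genes. H2AFX (4.93-fold), H3F3A (2.35-fold) and H2AFY2 (2.15-fold) were higher in batch B, and H1FX was lower there, at 0.24 of batch A. H3F3B (1.01-fold), CENPA (1.18-fold) and H2AFZ (0.84-fold) differed least. Together the 9 genes took 3915 to 4032 ppm of the reads without and 2918 to 2935 ppm with senescence in batch A, and 5932 to 6767 and 3679 to 4263 in batch B.

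The chaperones that place the variants were read from lists of known factors, chosen like the variant genes with earlier results known. 23 of 65 listed genes were called, beside 23.4% of all tested genes (11.8% lower and 11.6% higher). For CENP-A, 6 of 9 tested genes fell and 1 rose, with a median of -0.98. HJURP, the chaperone that carries CENP-A to the centromere, fell (-2.73 ± 0.16), as did CENPI (-2.23), a subunit of the inner kinetochore, while RSF1 of a remodelling complex rose (0.86). For H3-H4 placed behind the replication fork, 6 of 11 fell and none rose, with a median of -0.67. ASF1B (-2.73) and CHAF1A (-2.31), the large subunit of CAF-1, fell the most.

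Of all tested genes 11.6% were called higher and 11.8% lower, and the H3.3 and H2A.Z counts below lie near those shares. Of the H3.3 factors, 1 of 8 rose and 1 fell, with a median of 0.19. ATRX, which with DAXX places H3.3 in heterochromatin and telomeres, rose (0.83 ± 0.10, limma adjusted p = 3.43e-06). It had 473 to 826 normalised reads in non-senescent and 1001 to 1190 in senescent libraries. DAXX itself was lower (-0.58 ± 0.13, limma adjusted p = 0.00217), -0.39 in A and -0.68 in B, just under the fold limit. DEK, an H3.3 chaperone, fell (-1.32 ± 0.08). By edgeR 1 of the 8 rose and 2 fell, and at an unadjusted p under 0.05 3 were higher and 3 lower. Of the H2A.Z exchange factors of SRCAP, TIP60-EP400 and INO80, 2 of 14 fell and none was called higher, with a median of -0.07. ANP32E, which takes H2A.Z out of chromatin, fell (-1.07), as did YEATS4 (-0.70), a reader subunit shared by the complexes that insert it. The groups of YEATS4 overlapped in batch B. At an unadjusted p under 0.05, 1 of the 14 was higher and 6 were lower. Of the H2A-H2B chaperones, 0 of 8 were called by limma, edgeR or DESeq2 (median -0.17), with 1 higher and 3 lower at an unadjusted p under 0.05.

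For linker histones, 5 of 7 genes for chaperones and competing HMG proteins fell and none rose, with a median of -0.71. Of all tested genes 11.8% were called lower and 11.6% higher. Among the 5 were HMGN2 (-1.25), which competes with H1 for nucleosomes, and PTMA (-0.76), which encodes prothymosin alpha, a histone H1 binding protein. NASP (-0.67), a chaperone of H1 and of H3-H4, belongs to this list and the replication-coupled one. Of 9 genes around H2A.X phosphorylation 2 fell, MDC1 (-0.75), the reader of the phosphorylated tail, and PRKDC (-0.65), a kinase for it. None was called higher (median -0.13), but at an unadjusted p under 0.05 2 of the 9 were higher and 3 lower. The groups of PRKDC overlapped in batch B. Among 14 further variant genes 2 passed the filter, H2AFJ (0.41 ± 0.13) and H2BFM (0.51 ± 0.31), and neither was called. H2AFJ was higher at a limma adjusted p of 0.0156, but under the fold limit, with 0.11 in A and 0.57 in B. For H2BFM the limma adjusted p was 0.220.

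**Figure D5:**
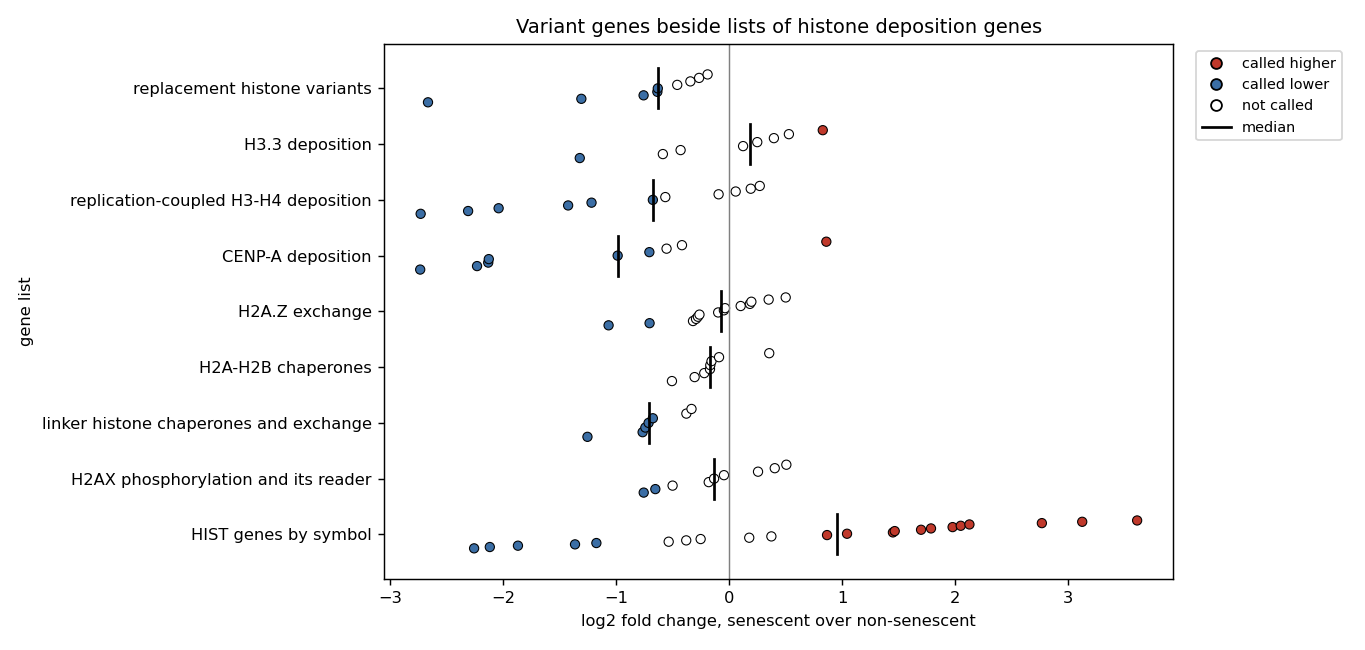
Log2 fold change (senescent over non-senescent) of the tested genes of each list, with bars at the medians and filled points for called genes (red higher, blue lower). The variant genes, the CENP-A list, the replication-coupled list and the linker list have medians between -0.98 and -0.63, and the HIST genes one of 0.96.

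The genes whose symbols start with HIST are mostly canonical histones. Of 89 such genes 54 had reads, 22 passed the filter, 12 rose and 5 fell, with a median of 0.96. Of all tested genes 11.6% were called higher and 11.8% lower. This list was defined by symbol with the table at hand. The normalised reads summed over all 89 went opposite ways in the batches: they were higher in senescent libraries of batch A (1208 to 1301 without and 2825 to 3005 with senescence) and lower in those of batch B (7692 to 14606 without and 4083 to 4341 with senescence). The batch B sum was mostly HIST1H4C alone, with 7016 to 14015 without and 2259 to 2462 with senescence. In batch A this gene had 153 to 238 without and 28.7 to 44.1 with senescence. It fell in both batches (-2.39 in A, -2.19 in B), so the opposite sums do not show that the list as a whole turned. HIST1H4E (3.61 ± 0.67) and HIST1H2AC (3.13 ± 0.20) rose the most, and HIST1H4C (-2.26 ± 0.15) and HIST2H2AC (-2.12 ± 0.39) fell the most. Counts of these genes cover poly(A) forms, and near-identical copies share reads, so single values are uncertain.

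The genes most like each variant were found from log2 values centred within each batch, by Pearson r over the 12 libraries among 11681 genes of a mean of at least 20 normalised reads. These r are a description: libraries of both groups enter, so genes that differ between the groups score high. H2AFZ was followed most closely by STMN1, the microtubule-destabilising stathmin (r = 0.996), FABP5 (0.992) and ACAT2 (0.992). H2AFV was followed by SKP2, an F-box protein of the S phase ubiquitin ligase (0.995), TMSB15A (0.986) and PTMA (0.983). CENPA was followed by NCAPH2 of condensin II (0.981), the cohesin protector SGO1 (0.975) and POLE3 (0.974).

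For the other variants the nearest genes were PXMP2 for H2AFX (0.976), CNOT9 for H2AFY (0.979), MRPL3 for H3F3A (0.973), MCUB for H3F3B (0.986) and TCEA3 for H1FX (0.987). H2AFY2 had the lowest of these best values, with NREP (0.963), whose own fitted change was -0.16.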

How the data were processed

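Poly(A) RNA of 6 senescent and 6 non-senescent EndoC-βH3 samples was read by CEL-seq2. Per the labels and methods, the authors ran Cutadapt, then Salmon 0.13.1 on GRCh38, and DESeq2, whose test of the groups had batch correction. The transcript annotation and the use of molecular identifiers are not stated. The deposited signal is reads per gene divided by a size factor per library. The deposited log2 fold changes with errors, test score, p-values and adjusted p-values, and the mean signal, are the authors' own DESeq2 comparison and were not used.

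All 196021 non-zero values were whole reads times one factor per library, within 0.001, so reads were recovered (100%). No row lacked a gene name. Precision follows depth, 4672924 to 17106776 reads per library. Libraries of one group and batch differed by more than sampling noise (chi-square per degree of freedom 4.15 to 7.61), so none was counted as a duplicate.

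limma 3.58.1 (R 4.3.3) with trend was run on log2(normalised read count + 1) of 13847 of 22707 genes with reads, those with a mean of at least 5, with batch and group in the model. Calls needed a fold change over 1.5 at an adjusted p under 0.1. Ratios of variant genes were tested by exact two-sided permutation within batch, at an adjusted p under 0.05. On simulated data for the same comparison (200 of 13847 genes changed), 77% of genes changed 2-fold and 93% of those changed 4-fold were recovered, 93.4% of 182 calls were changed genes, and 0 calls were made without changed genes.

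Positions are from GENCODE v44 and promoters from RefSeq (GRCh38.p14). Older symbols were matched through RefSeq synonyms, for 9 of 9 genes. The variant genes, the lists and the motifs were chosen with earlier results of these data known. Named were the 9 genes, from each list up to 2 called genes with the largest rise and fall, the 3 most correlated genes of each variant, and any marker. NASP, DAXX and the further variants H2AFJ and H2BFM were named after their values were seen. Alternatives varied the pseudocount (0.1, 8), filter (none, 20), scaling, batch, replicate block, trend, single libraries left out, and tool (edgeR 4.0.16 and DESeq2 1.42.0 on the recovered reads). Of the 10 genes of the rule, 1 is not reported here, nor is its ratio to another variant.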

Additional observations from a re-analysis of the deposited data

Results flagged for a closer look

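In H3F3B, non-senescent replicate B3 stood at 5985 normalised reads, apart from 6719 to 6828 in the other 3 libraries of its group and batch, and senescent replicate B4 stood at 4056, apart from 4520.1 to 4605. For each of the 9 genes and each group, the 6 libraries of both batches and the 4 of batch B were examined, 36 sets in all. In these 2 the gap between 1 library and its nearest neighbour took up more of the range than Dixon's 95% critical value allows. Chance alone picks about 1 in 20 of separate sets drawn at a single level. The sets of both batches contain those of batch B. Where the batches differ in level, 1 library can hardly stand apart in them, so that rate is only rough here.

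The response of 3 variant genes differed between the batches by the batch by group interaction of limma. As a log2 difference, B minus A, it was -0.88 for H2AFY2 (adjusted p = 0.0154), -0.54 for H2AFV (adjusted p = 0.0460) and -0.49 for H3F3A (adjusted p = 0.0803). H2AFY2 was higher in 2 of 2 senescent libraries of batch A and lower in 4 of 4 of batch B. Of the 12 fits that left out 1 library each, H2AFY2 passed in 10, H2AFV in 8 and H3F3A in 2.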

How the results depend on the processing

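The calls of H2AFZ and CENPA held in all 13 other settings and in all 12 fits without 1 library. Variant genes called numbered 2 in batch A alone, 3 without batch in the model, and 4 (without senescent replicate B4) to 5 with 1 library left out. Genes called numbered 2143 without batch in the model, and 3142 to 3277 with 1 library left out. H2AFY2 turned to 0.40 in batch A alone (adjusted p = 0.0392).

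Same-named samples did not vary together (correlation -0.05 to 0.02 over 6 pairs). Both pairs of batch A give the same value (-0.05) by construction, so the pairs are not independent. Whether the replicate names mark paired cultures cannot be told from these values. With the replicate names as a block 3211 genes and 5 variant genes were called, but for the interaction 356 genes and 1 variant gene (H2AFY2). With 1 library left out the interaction gave 169 to 743 genes and 0 to 5 variant genes. It ran from -0.13 to 0.048 for H2AFY and from -0.57 to 0.20 for CENPA (0.05 without senescent replicate A2), neither of them called. Where 1 library of batch A is left out, the remaining one is assumed to vary like the others.

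The log2 ratio of H2AFZ to H2AFV was -0.68 (adjusted p = 0.0625) under the replicate block and -0.65 (0.0571) in batch B alone. These small exact permutation tests cannot give a p under 0.0312 (block) and 0.0286 (batch B). That of H2AFY to H2AFY2 was -0.64 in batch A, 0.21 in batch B and -0.14 to 0.0027 with 1 library left out (0.00019 without senescent replicate A1). That of H3F3B to H3F3A was -0.21 in batch A and -0.14 to -0.077 with 1 library left out, passing only without non-senescent B1 (-0.13), non-senescent B2 (-0.13) or senescent B1 (-0.14). The cause was not tested.

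Depth limits CENPA most. Another filter, a fit without the trend, or edgeR or DESeq2 changed no call of the 9 genes.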
